A study of Mus musculus with 2 samples.

Results

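The CD3 chains and the pre-T-cell receptor alpha chain were examined in total RNA of the newborn mouse thymus. The 5 genes are Cd3g, Cd3d and Cd3e, which encode CD3 gamma, delta and epsilon, Cd247, which encodes the zeta chain, and Ptcra, which encodes the pre-receptor alpha chain. They were chosen by name and matched by Ensembl gene identifier, and all 5 were found among the 43346 genes of the deposited tables. The samples form 1 group: both thymus lobes of each of 2 B6NCrl pups at postnatal day 0, littermates from 1 pregnant female, with 1 library per pup (replicates 1 and 2). The labels give no treatment, no genetic change and no second tissue, and the sex of the pups was not collected. Each library was made from 10 ng of RNA with added spike-in RNA and held 39045711 and 41576378 expected counts over genes, where an expected count is an estimated read count that need not be whole. Levels are given in TPM, a relative abundance scaled to transcript length and to the same total in each library. Each mean is over both libraries (n = 2).

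The T-cell receptor binds antigen through its alpha and beta chains but has almost no signalling tail of its own. It is carried to the surface and connected to kinases by the CD3 chains and by zeta, whose tails hold the tyrosine motifs called ITAMs. CD3 epsilon pairs with gamma in one dimer and with delta in another, and zeta forms a dimer with itself. Before the alpha chain has been rearranged, a new beta chain is tested in a pre-receptor in which the invariant pre-T alpha chain stands in for alpha, and the same CD3 and zeta chains signal for it. In the thymus this checkpoint is passed on the way from the double-negative to the double-positive stage.

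All 5 genes were detected, meaning at least 1 TPM in both libraries, against 32.2% of all genes and 57.3% of protein-coding genes. Their order from high to low was Cd3g, Cd3d, Cd3e, Cd247 and Ptcra, and it was the same in both libraries. Because the thymus was sequenced as a whole, fewer cells of a type and less RNA per cell cannot be told apart in any of these levels. The thymus label was checked on marker lists. All 10 thymocyte markers and all 7 of thymic epithelium were detected, at a summed level of 3922 and 3895 TPM and of 1808 and 1867 TPM in replicates 1 and 2. Mesenchyme (5 of 5), endothelium (5 of 5) and erythroid markers (4 of 5) were found too, at summed levels of up to 331, 104 and 2751 TPM. Of conventional dendritic cell markers 3 of 6 were detected, at up to 7.91 TPM in sum. That is a lower share than the 57.3% of protein-coding genes.

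**Figure D1:**
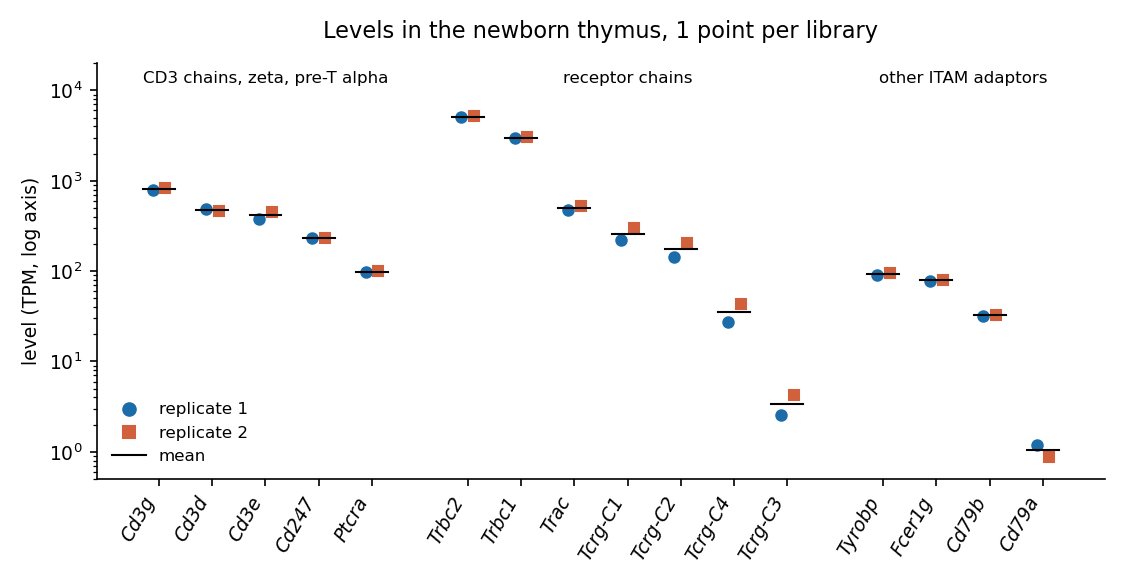
Level of each gene in TPM on a log axis, with 1 point per library (circles, replicate 1; squares, replicate 2) and a line at the mean of both, for the CD3 chains, zeta and pre-T alpha, for the constant regions of the receptor chains and for ITAM adaptors of other receptors. Cd3g, Cd3d, Cd3e, Cd247 and Ptcra descend from 817 to 98.4 TPM, and among these 5 the points lie furthest apart for Cd3e, at 378 and 450.2 TPM.

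Cd3g was the highest of the 5. CD3 gamma is the partner of epsilon in one of the dimers of the receptor. The gene reached 795 and 839 TPM in replicates 1 and 2, resting on 21067 and 23942 counts, a mean of 817 ± 31.2 TPM (SD, n = 2). That placed it 148th of 21474 protein-coding genes by mean level.

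Cd3d, the partner of epsilon in the other dimer, reached 493 and 459 TPM, resting on 17811 and 17892 counts. Its mean was 476 ± 24.1 TPM, rank 272 among protein-coding genes. Cd3g exceeded Cd3d in both libraries, 1.61-fold in replicate 1 and 1.83-fold in replicate 2. The gap between their means, 341 TPM, was larger than the sum of their SDs, 55.2 TPM.

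Cd3e, whose product sits in both CD3 dimers, had 378 and 450.2 TPM from 14921 and 19152 counts, with a mean of 414 ± 50.7 TPM and rank 314. It had the widest spread of the 5, a coefficient of variation of 12.2%, while that of the others lay between 0.477% and 5.05%. Cd3d and Cd3e were the one pair of neighbours in the order that did not differ beyond the spread. The gap of their means was 62.1 TPM and the sum of their SDs 74.8 TPM. Cd3d was 1.30-fold above Cd3e in replicate 1 but 1.02-fold above it in replicate 2.

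The interval bounds that the authors deposited with each TPM estimate overlapped for this pair in 1 of the 2 libraries. These bounds lie around a second estimate, the posterior mean, and their level is not given in the sources used here. In replicate 1 they were 477 to 491 TPM for Cd3d and 365 to 377 TPM for Cd3e, well apart. In replicate 2 they were 444 to 458 and 436 to 449 TPM and overlapped. By expected counts, which are not divided by length, Cd3d was above Cd3e in replicate 1 (a ratio of 1.19) and below it in replicate 2 (0.934).

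Gamma and delta messages together exceeded epsilon messages. The summed level of Cd3g and Cd3d was 1288 and 1298 TPM, which is 3.40 and 2.88 times that of Cd3e. The size of this excess rests on the transcript lengths used. By expected counts Cd3g was 1.41 and 1.25 times Cd3e, and Cd3d 1.19 and 0.934 times, in replicates 1 and 2. In the receptor each gamma and each delta chain pairs with an epsilon chain. The summed level of the 3 CD3 genes was 1667 and 1749 TPM. The levels are of RNA, and protein was not measured.

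Cd247, the zeta gene, had 232 and 233 TPM from 10305 and 11284 counts, a mean of 233 ± 1.11 TPM and rank 626. It lay below each CD3 gene in both libraries. Cd3g was 3.43- and 3.59-fold above Cd247, and Cd3e, the nearest above it, 1.63- and 1.93-fold.

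Ptcra was the lowest, with 97.1 and 99.8 TPM from 3389 and 3759 counts, a mean of 98.4 ± 1.92 TPM. Even so, 92.6% of protein-coding genes lay below it. Cd247 exceeded it 2.39- and 2.34-fold, and Cd3g 8.19- and 8.41-fold. Of the 10 pairs that the 5 genes form, 10 had the same order in both libraries by TPM, and in 9 the gap of the means exceeded the sum of the SDs.

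Relative to the receptor chains they assemble with, the CD3 genes lay near the alpha chain and far below the beta chain by TPM. The alpha constant region Trac was below Cd3d in replicate 1, with 478 TPM, and above it in replicate 2, with 523 TPM. Trac was 0.601 and 0.623 times Cd3g and 2.06 and 2.24 times Cd247. The beta constant regions Trbc1 and Trbc2 summed to 8056 and 8169 TPM, and the division of reads between these near-identical genes is uncertain. The alpha chain that replaces pre-T alpha had the higher level: Trac stood 4.92- and 5.24-fold above Ptcra by TPM. By expected counts, which are not divided by length, the gap was smaller. Trac had 4424 and 5225 counts and Ptcra 3389 and 3759. Trac also lay below Cd247 by counts, which had 10305 and 11284, and below each CD3 gene in both libraries. Its nearness to the CD3 genes and its excess over Cd247 therefore hold by TPM only. The gamma constant regions, chains of the gamma-delta receptor that uses the same CD3 complex, ranged from Tcrg-C1 at 260.4 ± 55.6 TPM and Tcrg-C2 at 176 ± 44.4 TPM down to Tcrg-C4 at 35.2 ± 11.3 TPM and Tcrg-C3 at 3.40 ± 1.20 TPM. They resemble each other in sequence, so the split among them is uncertain too. Trdc was not analysed here.

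Zeta is one of several ITAM adaptors in the immune system. Tyrobp (DAP12), an adaptor of myeloid and NK-cell receptors, had 93.6 ± 3.05 TPM, and Fcer1g, the Fc receptor gamma chain, had 78.8 ± 2.31 TPM. Cd247 exceeded them 2.49 ± 0.0693-fold and 2.95 ± 0.0726-fold. The B-cell receptor adaptors differed from one another: Cd79b had 31.7 and 32.9 TPM, while Cd79a had 1.20 and 0.880 TPM from 48 and 38 counts. Defining B-cell markers were at or near 0 (0 of 5 detected, summed level 0.960 and 1.53 TPM). Macrophage markers, from cells that use Tyrobp and Fcer1g, were all detected (6 of 6, summed level 274 and 291 TPM).

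Some members are also expressed outside T cells, so markers of those cells were read beside them. NK cells contain zeta and cytoplasmic CD3 epsilon. Of 8 NK-cell markers 6 were detected, at a summed level of 20.7 and 22.3 TPM, with Klrd1 highest at 8.78 ± 1.84 TPM and Eomes lowest at 0.150 and 0.0500 TPM. Plasmacytoid dendritic cells can express Ptcra. Of their 9 markers 7 were detected, at 536 and 585 TPM in sum, most of it from Ly6d (303 ± 32.8 TPM) and Bst2 (134 ± 0.827 TPM). Irf8 had 60.2 ± 0.714 TPM, Tcf4 30.2 ± 1.82 TPM, Pacsin1 15.3 ± 0.184 TPM, Spib 13.1 ± 1.13 TPM and Klk1 2.70 ± 1.00 TPM. The 2 markers not detected were Siglech, with 0.960 and 0.950 TPM from 45 and 55 counts, and Cd300c, with 0.190 and 0.170 TPM. The part of these cells in the levels of Cd247, Cd3e and Ptcra was not tested. Whether other cells of the thymus add to these marker levels was not tested either.

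Cd3g, Cd3d and Cd3e lie in a cluster of 40056 bases on chromosome 9 (build GRCm38/mm10; all coordinates of genes, exons and transcripts here are of GENCODE M21). Cd3g spans chr9:44969572-44980431 on the minus strand, Cd3d spans chr9:44981786-44987339 on the plus strand and Cd3e spans chr9:44998740-45009627 on the minus strand. Cd3g and Cd3d are transcribed away from each other from starts 1355 bases apart. Each CD3 gene stood above all measured genes around the cluster. Of 14 other genes annotated within 100 kb of a CD3 gene 8 were measured and 6 reached 1 TPM, at a median of 8.06 TPM. The nearest, the ubiquitin ligase gene Ube4a, had 13.3 ± 0.813 TPM, and Mpzl2, on the side of Cd3e, had 5.44 ± 1.22 TPM. The highest was Atp5l, a subunit gene of the mitochondrial ATP synthase, at 218 ± 5.16 TPM. Mpzl3, Jaml and Kmt2a had 6.85 ± 0.636, 5.45 ± 0.841 and 9.27 ± 3.30 TPM.

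**Figure D2:**
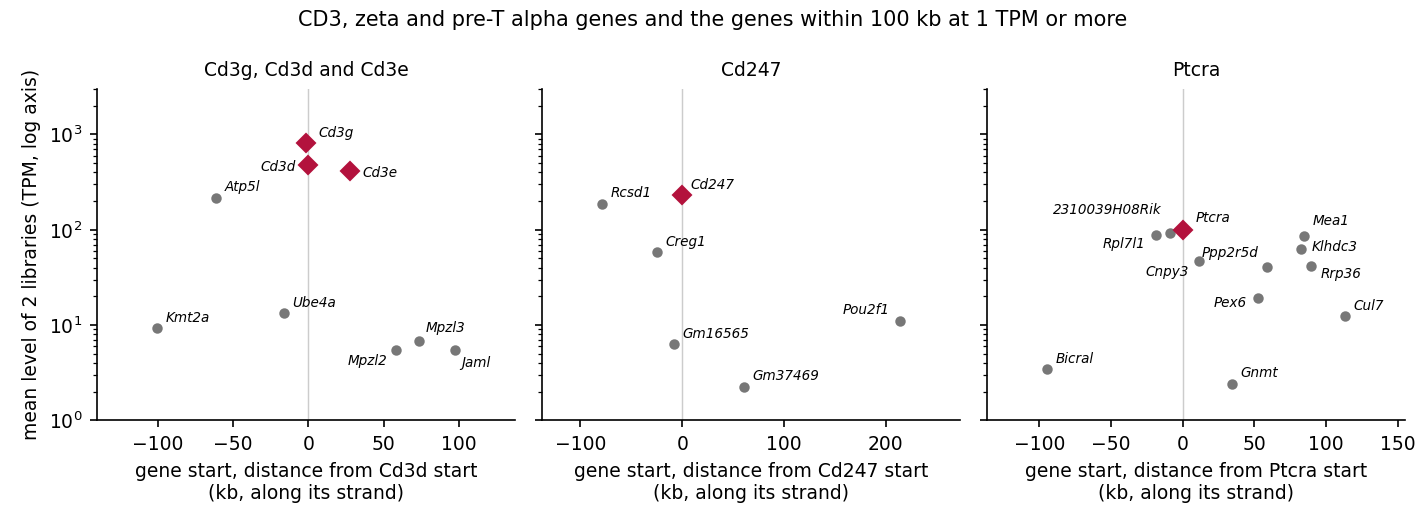
Mean level of both libraries in TPM (log axis) for the studied genes (red diamonds) and the annotated genes within 100 kb that reached 1 TPM in either library (grey circles), against the distance in kb from the start of Cd3d, Cd247 or Ptcra to the start of each gene, along the strand of the reference gene. The 3 CD3 genes stand above every neighbour, Cd247 is followed by Rcsd1 at 188 TPM, and Ptcra, at 98.4 TPM, lies just above 2310039H08Rik at 92.5 TPM.

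Cd247 is a longer gene, spanning chr1:165788681-165877277 on the plus strand. Its neighbours Rcsd1 and Creg1 had 188 ± 7.48 and 58.5 ± 2.00 TPM. Ptcra spans chr17:46755663-46763712 on the minus strand and stood just above the highest of its neighbours. The nearest on either side were 2310039H08Rik at 92.5 ± 1.61 TPM and Cnpy3, a chaperone of Toll-like receptors, at 46.6 ± 1.93 TPM. The ribosomal protein-like gene Rpl7l1 had 87.5 ± 0.283 TPM and Mea1 86.2 ± 3.77 TPM. Of 12 genes within 100 kb of Ptcra 11 reached 1 TPM, with a median of 42.1 TPM and Gnmt lowest at 2.43 ± 0.0495 TPM. The remaining 6 were Klhdc3, Rrp36, Ppp2r5d, Pex6, Cul7 and Bicral, at 3.42 to 63.4 TPM.

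The sequences just before the starts of Cd3g, Cd3d and Ptcra are shown because Cd3g and Cd3d face away from each other in the cluster and Ptcra marks the pre-receptor stage. Each is the 250 bases before the RefSeq start in GRCm38.p6, written in the direction of transcription. RefSeq promoters were found for all 5 genes. Capitals mark motifs on either strand. In Ptcra (chr17:46763713-46763962, minus strand) they mark CAGCTG, an E-box of the kind that E proteins bind. In Cd3d (chr9:44981536-44981785, plus strand) they mark CTTTGA, the core of the TCF and LEF motif. In Cd3g (chr9:44980432-44980681, minus strand) they mark CAGGTG, which is also an E-box, and AGATAA, which Gata factors bind.
Ptcra: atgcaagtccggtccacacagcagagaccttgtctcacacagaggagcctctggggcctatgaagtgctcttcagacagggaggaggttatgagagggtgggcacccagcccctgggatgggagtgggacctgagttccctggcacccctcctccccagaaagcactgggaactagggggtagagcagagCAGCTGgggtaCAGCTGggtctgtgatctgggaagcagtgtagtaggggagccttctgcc
Cd3d: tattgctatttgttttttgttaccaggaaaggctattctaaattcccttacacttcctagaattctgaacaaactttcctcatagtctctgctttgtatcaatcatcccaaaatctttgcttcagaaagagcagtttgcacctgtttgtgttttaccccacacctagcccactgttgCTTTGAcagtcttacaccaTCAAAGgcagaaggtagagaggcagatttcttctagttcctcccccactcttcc
Cd3g: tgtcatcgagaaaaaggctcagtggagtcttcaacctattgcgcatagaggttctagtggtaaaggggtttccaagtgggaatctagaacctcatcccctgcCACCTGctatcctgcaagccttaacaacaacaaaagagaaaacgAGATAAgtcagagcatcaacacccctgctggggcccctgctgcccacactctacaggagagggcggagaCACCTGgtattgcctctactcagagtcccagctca

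The 3 windows held different motifs. Ptcra had 2 copies of CAGCTG, where 1.26% of 32817 promoter windows of the same length had at least 2 and 13.0% had at least 1. Cd3d had 2 copies of CTTTGA (at least 2 in 1.36%, at least 1 in 13.8%). Cd3g had 2 copies of CAGGTG (at least 2 in 2.07%, at least 1 in 17.2%) and 1 of AGATAA (in 9.99%). No motif marked in one of them was found in another, apart from 1 CAGGTG in Cd3d. In the windows of Cd3e and Cd247, which are not printed, the counts were 2 and 1 for AGGAAG, an ETS motif found in 29.5% of windows and once in Cd3d, and 0 and 1 for CAGGTG. Neither TGTGGT, a Runx motif (in 14.0%), nor TATAAA, the TATA box (in 12.4%), was in any of the 5 windows. The 7 motifs were searched in all 5 windows, and the shares make no allowance for that number of searches. These matches are letters in a short window, and distal control regions were not examined.

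Transcription factors linked to Ptcra and the CD3 genes, and inhibitors of such factors, were all detected (15 of 15), with a median of 103 TPM beside 15.0 TPM for all detected genes. The highest were the TCF factor Tcf7 at 972 ± 114 TPM, the ETS factor Ets1 at 280.3 ± 16.4 TPM and Lef1 at 248 ± 14.2 TPM. The lowest was Rbpj, the DNA-binding partner of Notch, at 17.3 ± 0.516 TPM.

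The proteins that bind the CD3 and zeta tails or work directly beside them were also all detected (14 of 14, median 97.7 TPM). Lck, the kinase that phosphorylates the ITAMs, had 1240 ± 29.4 TPM, the adaptor Lat 574 ± 23.1 TPM and Sla, an adaptor that promotes turnover of zeta, 240 ± 10.9 TPM. The lowest was the ubiquitin ligase Cblb at 5.41 ± 0.467 TPM. Lck thus exceeded even Cd3g in both libraries, at 1261 and 1219 TPM against 795 and 839 TPM.

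Genes of the stage at which the pre-receptor acts (15, of which 14 were detected) had a median of 105 TPM, close to the level of Ptcra. The cyclin Ccnd3, which the pre-receptor requires for expansion of thymocytes, had 930.1 ± 15.0 TPM, the recombinase Rag1 271 ± 11.7 TPM and Cd27 176 ± 44.3 TPM. Egr3, an early response gene, was lowest, at 0.330 and 0.410 TPM from 13 and 17 counts.

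Transcript assignment differed in what it could show for each gene. In the deposited annotation (GENCODE M4) Cd3d, Cd3e and Ptcra each had 1 transcript, so 100% of their TPM went to it by construction. Cd3g had 3 transcripts and Cd247 had 9. The later annotation M21 lists 3 for Cd3d and 4 for Cd3e, and it lengthens the transcript of Cd3d from 1323 to 1617 nt and that of Cd3e from 1436 to 1462 nt. The transcripts of Cd3d and Cd3e added in M21 were therefore not analysed here. The same holds for the short form of Ptcra, known to lack exon 2 (chr17:46758544-46758864, 321 coding bases), which encodes the immunoglobulin-like domain. It is in neither annotation, so reads of both forms would be counted together.

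The zeta form made up nearly all of Cd247. Transcript Cd247-201, with 164 codons, encodes zeta and took 93.7% of the gene's TPM in replicate 1 and 95.4% in replicate 2, from 9818 and 10856 counts (mean 94.5% ± 1.19). The eta form has 206 codons and leaves the zeta sequence after exon 7. Its transcripts (Cd247-202, Cd247-203 and Cd247-209) held 3.26% and 2.76%, from 272 and 246 counts, nearly all of it in Cd247-202 (272 and 237 counts). Zeta exceeded eta 28.7-fold and 34.6-fold by TPM.

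The coding ends of zeta and eta are shown because only the last exon separates the coding sequences of these forms. Outside the coding part, exon 1 also differs, with 198 bases in Cd247-201 and 164 in Cd247-202. Lower case gives exon 7, which both share, and capitals give the coding part of the last exon without the stop codon: chr1:165861004-165861066 for zeta and chr1:165866655-165866843 for eta, both on the plus strand, from transcripts Cd247-201 and Cd247-202 of M21. The lengths of both transcripts are the same in the deposited tables and in M21 (1632 and 1317 nt).
zeta: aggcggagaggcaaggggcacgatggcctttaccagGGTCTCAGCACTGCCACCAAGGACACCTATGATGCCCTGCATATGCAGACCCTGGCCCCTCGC
eta: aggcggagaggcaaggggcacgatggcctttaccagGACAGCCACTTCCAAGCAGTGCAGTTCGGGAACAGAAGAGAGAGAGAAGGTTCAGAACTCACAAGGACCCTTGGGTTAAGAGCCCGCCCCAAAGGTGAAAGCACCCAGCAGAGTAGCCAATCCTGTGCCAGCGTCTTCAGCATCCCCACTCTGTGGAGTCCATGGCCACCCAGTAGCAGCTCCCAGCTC

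The last exon gives zeta 63 and eta 189 coding bases. The zeta exon holds the last tyrosine of the third ITAM, which eta is known to lack. A further group of coding ends (Cd247-205, Cd247-206 and Cd247-208) held 0.880% and 1.04% of TPM, led by Cd247-205 with 99.3 and 127 counts. Cd247-208 was assigned 0 counts in both libraries. The deposited SDs of these counts were 2.07 and 1.66, and the upper interval bounds were 0.0956 and 0.0786 TPM.

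The Cd247 transcripts with no coding sequence had fewer counts in replicate 2. Cd247-207, a processed transcript at the far end of the gene, had 83.8 and 40.7 counts (1.70% and 0.760% of TPM). Cd247-204, a retained intron, had 27.3 and 6.30 counts, and the deposited SDs of these 2 counts were 8.03 and 4.59. The annotated genes that overlap Cd247 and had any counts also had fewer in replicate 2. Such a lean was not limited to this locus. Of all genes over 2-fold at a mean count of at least 50, 164 were higher in replicate 1 and 28 in replicate 2. Gm16565, on the same strand and overlapping the first exon, had 290 and 193 counts (8.20 and 4.33 TPM). On the opposite strand Pou2f1, which overlaps the end of Cd247, had 1211 and 896 counts (12.8 and 9.46 TPM), the antisense gene Gm37469 had 60 and 49 counts, and the provisional models Gm37856 and Gm32999 had 26 and 12 and 12 and 2 counts. Gm23402 had none. Whether strand was used in counting is not given in the sources used here, so reads of overlapping genes may be assigned to either, and the part of this in the levels of Cd247 transcripts was not tested. The span of Pou2f1 holds the last coding exon of eta, and its counts exceeded the 272 and 246 of the eta transcripts in both libraries. Over Ptcra, the opposite-strand model Gm26904 had 1.40 and 0 counts. Gm48719 and Gm48720, which overlap Cd3e, were not analysed here.

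**Figure D3:**
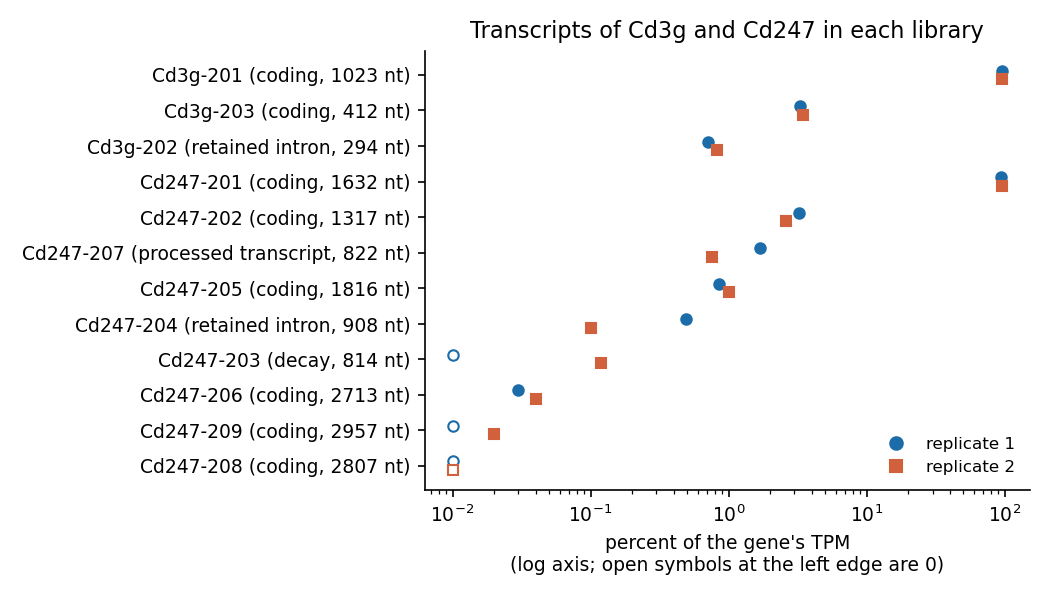
Percent of the gene's TPM assigned to each transcript of Cd3g and Cd247 in each library (log axis; circles, replicate 1; squares, replicate 2; open symbols stand for 0). Cd3g-201 and Cd247-201 each hold more than 93% in both libraries, and the non-coding Cd247-207 and Cd247-204 lie further left in replicate 2.

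Cd3g was likewise dominated by its full-length transcript. Cd3g-201 held 96.0% and 95.7% of TPM, from 20793 and 23610 counts. The form that joins exon 1 to exon 3 of the full-length transcript, Cd3g-203, held 3.30% and 3.46%, from 242 and 289 counts. Its share of counts was lower, 1.21% in replicate 2, because its model has 412 nt, against 1023 nt for Cd3g-201. The 301 coding bases of Cd3g-203 run to the end of the model and are not a whole number of codons. The retained intron Cd3g-202 held 0.710% and 0.820%.

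The skipped exon 2 of Cd3g (chr9:44975247-44975270, minus strand, 24 bases) is shown because it is what the minor coding form lacks. Each line gives 24 bases of the exon on either side in lower case, and capitals mark exon 2.
Cd3g-201: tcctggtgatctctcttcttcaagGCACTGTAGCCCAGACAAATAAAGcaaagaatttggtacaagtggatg
Cd3g-203: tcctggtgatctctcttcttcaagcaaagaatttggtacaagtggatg

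Between the 2 pups the 5 genes differed by at most 1.23-fold in either direction. Differences are given as log2 ratios of scaled counts, replicate 2 over replicate 1, each with a 95% interval that covers counting error only. None of the 5 differed over 2-fold, against 1.36% of the 14155 genes whose mean count reached 50. At that share a set of 5 genes can hold none. The median absolute difference of those genes was 1.10-fold. Each pup has 1 library, so these values set one library against the other, without a replicate of either.

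Cd3e differed most, being 1.23-fold higher in replicate 2 (log2 ratio 0.30, interval 0.26 to 0.33). Of the 14155 genes, 80.8% had a smaller difference in either direction. Cd3g was 1.09-fold higher in replicate 2 (0.12, 0.09 to 0.15). Ptcra was 1.06-fold higher (0.08, 0.02 to 0.15) and Cd247 1.05-fold higher (0.07, 0.03 to 0.10). Cd3d alone was lower in replicate 2, at a fold of 0.961 (-0.06, -0.09 to -0.03). These directions are relative to the bulk of genes. On spike-in totals, which add 0.69 to every log2 ratio, Cd3d too was higher in replicate 2, at 0.63. Trac, for comparison, had a log2 ratio of 0.18, and the summed thymocyte markers stood at 3922 and 3895 TPM.

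**Figure D4:**
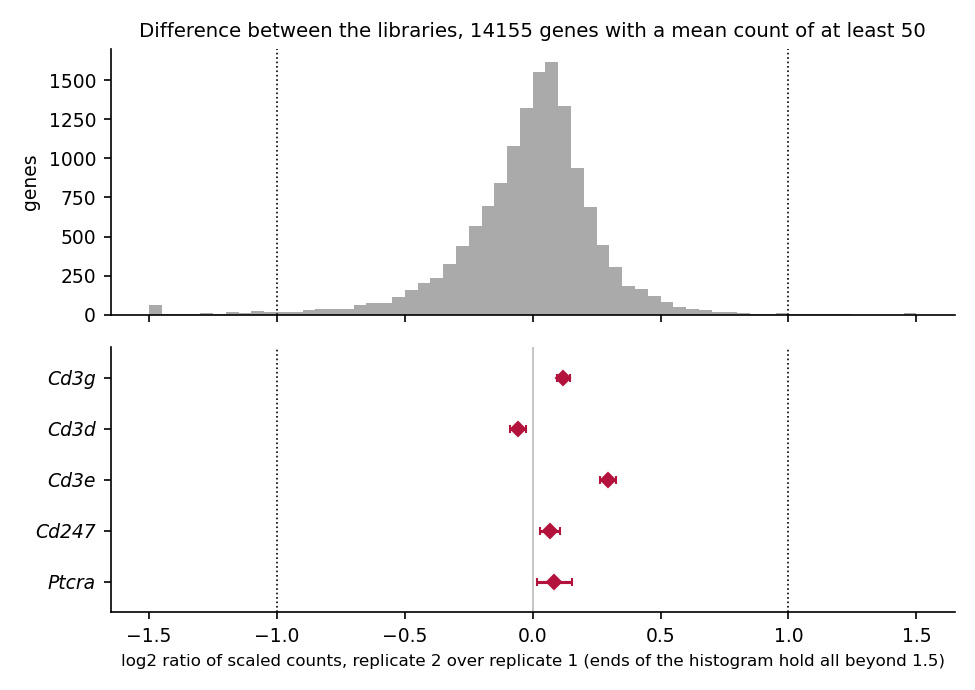
Top, number of genes by log2 ratio of scaled counts (replicate 2 over replicate 1) for 14155 genes whose mean count reached 50; bottom, the same ratio for each studied gene with its 95% counting interval, and dotted lines at 2-fold. All 5 genes lie between -0.06 and 0.30, inside the 2-fold lines.

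The wider lists were read in the same way. No gene of the receptor chain, CD3-binding, ITAM adaptor, regulator or beta-selection lists differed over 2-fold. The share was 1.36% among the 14155 genes whose mean count reached 50, and at that share lists of this size can hold none. Their median log2 ratios were 0.33, -0.03, 0.11, -0.06 and 0.15, beside 0.02 for all genes. The highest, that of the receptor chains, came with the gamma constant regions, where Tcrg-C1 had 221 and 299.8 TPM and Tcrg-C4 had 27.2 and 43.2 TPM. By scaled counts Tcrg-C1, Tcrg-C2, Tcrg-C4 and Tcrg-C3 were 1.40-, 1.48-, 1.64- and 1.69-fold higher in replicate 2. The median absolute difference of all genes whose mean count reached 50 was 1.10-fold.

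Protein-coding genes closest in level to each of the 5, by distance on log2(TPM + 1) over the 2 libraries, were Ppp1ca and Rpl29 for Cd3g, Alyref and Atp5k for Cd3d, mt-Nd3 and Rpl22l1 for Cd3e, Timm10b and Mpc1 for Cd247, and Gorasp2 and Abcf2 for Ptcra. Ppp1ca, for example, had 799 and 840.3 TPM. With 2 libraries of 1 tissue this is a likeness of level only.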

How the data were processed

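Total RNA of 2 newborn thymuses was compared as 1 group of 2 libraries, with groups and replicate numbers from the labels. Per the labels, coordinates are of mm10, and the deposited read-me texts name annotation M4. No source used here names the aligner, the quantifier or how strand was treated. The authors deposited expected counts (not normalized), TPM (scaled to effective length, 99 nt below transcript length) and the percent of a gene's TPM per transcript, with interval bounds around a posterior mean. Of 69691 rows, 96 spike-ins and 26249 other rows were left out. Symbols and coordinates came from GENCODE M21 by identifier without version (42462 of 43346 genes matched).

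Counts were rounded and scaled with TMM (edgeR 4.0.16, R 4.3.3) at a prior count of 0.5, and the scaling was tested on simulated data. With 1 group there was no test. Python 3.11.15, pandas 2.3.3 and matplotlib 3.10.9 were used. The genes, lists and motifs were chosen with earlier results of these data known. By rule, the text names the 5 genes, all receptor chains, the 3 highest and the lowest of each other pathway list, genes that overlap the 5 or lie within 100 kb at 1 TPM, the 2 closest in level, every Cd247 transcript and other transcripts from 5% of a gene's TPM. Single marker genes, Cd3g-202 and Cd3g-203 were named after their values were seen. The alternatives varied scaling (DESeq2 1.42.0, spike-ins, total count, TPM), length, denominator, prior count, filters and library. A count of 0 for a gene allows up to 3. Intervals and floors cover counting error only.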

Additional observations from a re-analysis of the deposited data

How the results depend on the processing

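With 1 library per pup, the SD of 2 values and counting error are the measures of precision. The order of the 5 genes held in each library alone by TPM, and detection held for 5 of 5 at 0.1, 1 and 10 TPM. By expected count 9 of 10 pairs kept their order, Cd3d and Cd3e being the exception. TPM over protein-coding and T-cell receptor genes gave 969, 565, 491, 276 and 117 for Cd3g, Cd3d, Cd3e, Cd247 and Ptcra, and annotated length gave 502, 249 and 103 for Cd3d, Cd247 and Ptcra. On spike-in totals (659 and 427 counts) the log2 ratios were 0.81, 0.63, 0.99, 0.76 and 0.78 in that order, so that of Cd3d turned from -0.06 to positive, and the median of all genes moved from 0.02 to 0.71. This scaling shifts every gene by the same amount. By TPM the ratios of Cd3g, Cd3d, Cd3e and Cd247 were 0.0779, -0.10, 0.25 and 0.00974. DESeq2 size factors, total count and a prior count of 5 kept the direction of all 5. Cd3g-201 held 98.7% of counts and 96.6% of the TPM of coding transcripts, and Cd247-201 held 95.7% and 96.0%. Genes over 2-fold numbered 192, and 847, 21 and 5512 at minimum counts of 10, 500 and 0, or 1005 on spike-in totals. Genes detected numbered 13957, and 8092 at 10 TPM. No paired analysis was possible because there is 1 group.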
